A study of Mus musculus with 6 samples.

Results

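The genes described here are C1qa, C1qb, C1qc, Tyrobp, Tmem119 and B2m, 6 of the 1375 genes in the authors' deposited table of prefrontal cortex RNA sequencing. They were taken by gene name, and all 6 were found. The table compared 3 responder mice with 3 nonresponder mice, sorted by forced swimming and novelty suppressed feeding behaviour. All 6 were male C57bl/6j siblings, group housed at 3 per cage, and all had received ketamine, an NMDA receptor antagonist, at 10 mg/kg intraperitoneally 24 hours before the tissue was taken. No untreated mouse was among the samples, so each value compares ketamine-treated mice with each other. What the labels enter as genotype is the behavioural class, with no allele named, and the age of the mice is not given in the sources used here. Each library came from the whole prefrontal cortex of 1 mouse, and all carry batch number 1.

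Complement component C1q is the recognition unit of the classical complement pathway. It is built from the A, B and C chains encoded by C1qa, C1qb and C1qc, and in the brain microglia are its main source. C1q can tag synapses, which microglia then engulf. Tyrobp is the signalling adaptor through which Trem2 and related receptors act in microglia, and Tmem119 is a membrane protein used to tell resident microglia from other macrophages. B2m is the light chain of MHC class I, which many cell types make, so it is not a microglial marker.

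Every row of the table had a p-value below 0.05 and was higher in responders in the authors' own comparison. The direction of the 6 genes was therefore fixed by the selection, and the fold changes below are descriptions. In bulk tissue, more microglia and more RNA per microglial cell in responders cannot be told apart. Of 22 microglial markers, 10 were in the table, which held 1375 genes beside 14156 inferred for the authors' adjustment. The lists were chosen with earlier results of these data known and several are short, so their counts are no comparison between cell types. None of the 9 neuronal, 9 oligodendrocyte, 5 red blood cell, 5 T and NK cell, or 7 monocyte and neutrophil markers was in it, so the tissue label could not be checked on these and they were not analysed here. Responder replicate 3 stood apart. It was the highest library in 1204 listed genes, and its median FPKM (fragments per kilobase of gene per unit of library scale) was 18.8, against 9.48 to 11.9 in the other libraries. The libraries held between 1989534 and 3486903 reads over the listed genes, of which 2496 to 4884 fell on the 6 genes.

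In the authors' deposited table, none of the 6 genes passed at an adjusted p-value of 0.05, a threshold that 1.38% of the listed genes passed. The authors' deposited table gave adjusted p-values of 0.153 for Tyrobp, 0.170 for C1qb, 0.187 for C1qc, 0.227 for C1qa, 0.242 for Tmem119 and 0.268 for B2m. Responders exceeded nonresponders by a median of 0.63 on the log2 scale over the 6 genes, beside 0.57 over all listed genes. Without responder replicate 3 these medians were 0.29 and 0.26. All responders exceeded all nonresponders in 4 of the 6 genes, where 73.5% of listed genes had such a separation. With responder replicates 1 and 2 alone, it was again 4 of 6, beside 74.1% of listed genes. The 4 genes were C1qa, C1qb, C1qc and Tmem119, and in Tyrobp and B2m the groups overlapped. These shares are near those of the table as a whole.

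**Figure D1:**
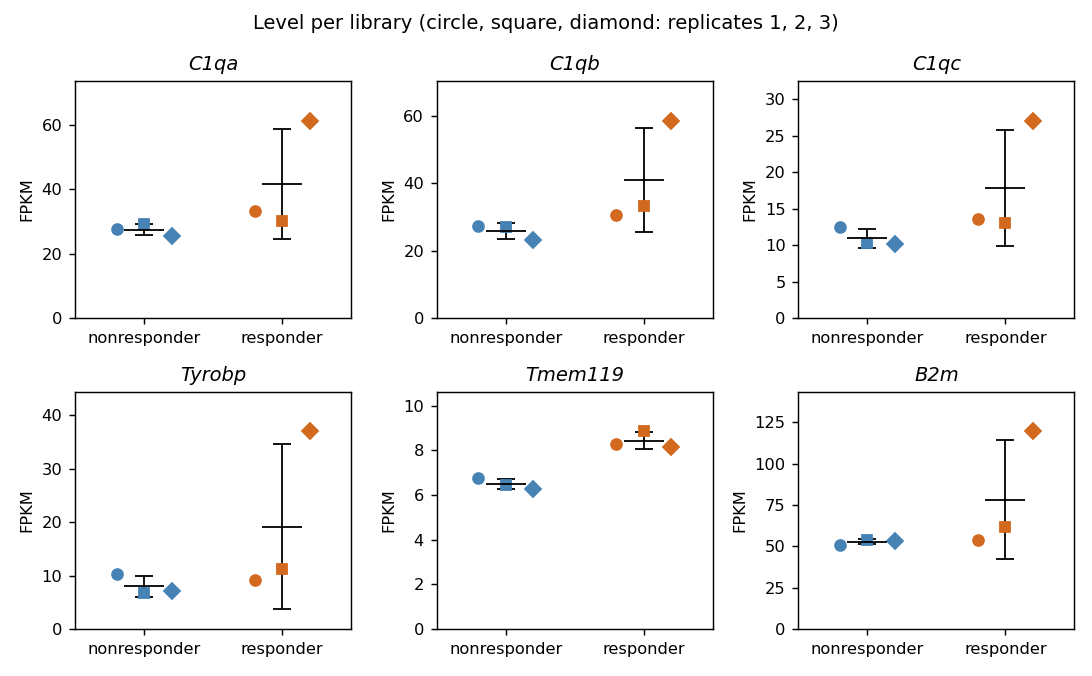
Level of each gene in FPKM (vertical axes from 0) in the nonresponder and responder libraries, with symbols for replicates and black bars for mean and SD (n = 3 per group). Responder replicate 3 (diamond) is far above the other libraries in every panel but Tmem119, where it stands at 8.13 FPKM beside 8.29 and 8.85 FPKM in the other responders.

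The C1q chain genes lie side by side on the minus strand of chromosome 4 (mm10). C1qb (ENSMUSG00000036905) spans 136880129 to 136886187, C1qc (ENSMUSG00000036896) 136889804 to 136893065 and C1qa (ENSMUSG00000036887) 136895917 to 136898803. The gaps between them measured 3616 and 2851 bases, and no other gene of GENCODE release M21 lay in the whole span of 18675 bases. RefSeq promoter sequence (GRCm38.p6) was on hand for C1qb and C1qc, and is shown because both genes moved together across the libraries. Moving together was not particular to them, since 605 of 1246 listed genes compared had an r above 0.95 to the C1q mean. The windows are the 250 bases before each RefSeq start, at chr4:136886201-136886450 and chr4:136892915-136893164, minus strand, written 5′ to 3′. Capitals mark the ETS core GGAAGT, read on the opposite strand, and in C1qc its extension to the site GAGGAAGT, which contains that core. Sites of this kind are bound by PU.1, a factor that microglia need to develop.
C1qb: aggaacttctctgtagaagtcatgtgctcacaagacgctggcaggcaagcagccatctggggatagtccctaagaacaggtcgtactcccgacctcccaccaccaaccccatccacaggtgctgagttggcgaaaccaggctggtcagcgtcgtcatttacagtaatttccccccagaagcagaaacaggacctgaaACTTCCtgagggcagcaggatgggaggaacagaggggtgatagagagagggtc
C1qc: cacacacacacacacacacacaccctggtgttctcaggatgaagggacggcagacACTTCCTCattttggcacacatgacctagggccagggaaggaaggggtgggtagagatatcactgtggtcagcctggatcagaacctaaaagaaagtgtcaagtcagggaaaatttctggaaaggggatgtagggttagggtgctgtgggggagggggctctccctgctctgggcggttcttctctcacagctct
The match began 53 bases before the RefSeq start in C1qb and 195 bases before it in C1qc. For C1qc the deposited gene begins further upstream, so 151 of the 250 bases lie inside the gene as deposited and the match begins 44 bases before that start. Searched on both strands, the ETS core was in 19.7% of 32851 RefSeq promoter windows of the same length and the longer site in 2.44%. A match is a description of these letters, and binding was not measured.

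C1qa stood at 27.7, 29.1 and 25.6 FPKM in nonresponder replicates 1, 2 and 3 and at 33.2, 30.2 and 61.2 FPKM in the responders. The groups did not overlap, but responder replicate 2 was only slightly above the highest nonresponder, and replicate 3 was far above all others. The nonresponder mean was 27.5 ± 1.77 FPKM and the responder mean 41.5 ± 17.1 FPKM (SD, n = 3 each), which is 1.51-fold higher in responders and 1.15-fold higher without responder replicate 3. C1qb stood at 27.4, 27.1 and 23.1 FPKM among nonresponders and at 30.7, 33.3 and 58.6 FPKM among responders. It followed C1qa in level and in the library that was highest, at 1.58-fold, or 1.24-fold without that library. C1qc stood at 12.4, 10.3 and 10.1 FPKM among nonresponders and at 13.6, 13.02 and 27.1 FPKM among responders. Its groups were again separate by a narrow margin in responder replicates 1 and 2, and the fold was 1.63, or 1.21 without replicate 3.

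Summed over the chains, C1q had a mean of 64.3 ± 4.78 FPKM over nonresponders and 100 ± 40.3 FPKM over responders (SD, n = 3 each). Without responder replicate 3 the responder mean was 77.0 FPKM, from 77.5 and 76.6 FPKM. The makeup of this sum moved little while its size more than doubled from 58.8 to 147 FPKM across the libraries. C1qa made up 39.4% to 43.7% of it, C1qb 39.3% to 43.6% and C1qc 15.5% to 18.4%. In responder replicate 3, the library with the highest sum, the shares were 41.7%, 39.9% and 18.4%, inside or at the edge of the range of the other 5 libraries.

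A ratio taken inside a library does not depend on its scale, and ratios between the genes were tested. No ratio was itself used to select the rows. Both genes of each ratio were, however, selected as higher in responders in these mice. The ratios are therefore not free of that selection, and a small difference cannot show that they are the same in both groups. The C1qa to C1qb ratio had a mean of 0.09 ± 0.06 on the log2 scale in nonresponders and 0.01 ± 0.14 in responders (SD, n = 3 each). C1qc stood below C1qb by a mean log2 ratio of -1.24 ± 0.14 in nonresponders and -1.22 ± 0.13 in responders (SD, n = 3 each). The C1qa to C1qc ratio was 1.33 ± 0.17 and 1.23 ± 0.06 (SD, n = 3 each). In each of the ratios the difference between groups, -0.08, 0.02 and -0.10 on the log2 scale, was within the spread of one of the groups. Exact two-sided permutation p-values were 0.6, 0.7 and 0.5, and 0.84 each when adjusted over the 6 ratios tested. With 3 mice against 3 the smallest p such a test can give is 0.1, so it could not have passed a threshold of 0.05.

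Tyrobp (ENSMUSG00000030579, chromosome 7, 30413760 to 30417585, plus strand) had the largest fold between group means of the 6. It stood at 10.3, 6.63 and 7.07 FPKM among nonresponders and at 9.15, 11.3 and 37.0 FPKM among responders. Nonresponder replicate 1 lay above responder replicate 1, so the groups overlapped, and responder replicate 3 was over 3 times the next highest library. These values rest on 128, 76 and 91 reads in nonresponders and 112, 123 and 370 reads in responders. The 95% Poisson interval, which covers counting error only, was 333 to 410 reads in responder replicate 3 and 102 to 147 reads in responder replicate 2. The fold of group means was 2.40, at a log2 difference of 1.26, and 1.28 without responder replicate 3, at 0.35.

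Relative to the mean of the C1q genes, Tyrobp stood at a log2 ratio of -0.31 in responder replicate 3 and between -1.60 and -1.04 in the other 5 libraries. That library alone held Tyrobp and C1q closer together than the rest. The group means of this ratio were -1.33 ± 0.28 and -0.92 ± 0.55 (SD, n = 3 each), with an exact permutation p of 0.5 and an adjusted p of 0.84. Without responder replicate 3 the difference was 0.11 in place of 0.41.

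Tmem119 (ENSMUSG00000054675, chromosome 5, 113793729 to 113800516, minus strand) had the smallest SD in FPKM of the 6 in each group, and also the lowest mean. It stood at 6.75, 6.46 and 6.29 FPKM among nonresponders and at 8.29, 8.85 and 8.13 FPKM among responders. The groups were separate, and responder replicate 3 was the lowest of the responders, unlike in the other 5 genes and in 87.6% of listed genes, where it was the highest library. The nonresponder mean was 6.50 ± 0.234 FPKM and the responder mean 8.42 ± 0.380 FPKM (SD, n = 3 each), or 1.30-fold higher in responders and 1.32-fold without responder replicate 3. Of the 6 genes it had the smallest log2 difference with all libraries, at 0.37, and the largest without that library, at 0.40. Its log2 ratio to the C1q mean lay between -1.65 and -1.41 in 5 libraries and was -2.50 in responder replicate 3. Group means of this ratio were -1.60 ± 0.07 and -1.82 ± 0.59 (SD, n = 3 each), with an exact permutation p of 0.9, also after adjustment. The difference was -0.21, and 0.13 without responder replicate 3, so its sign rests on that library.

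**Figure D2:**
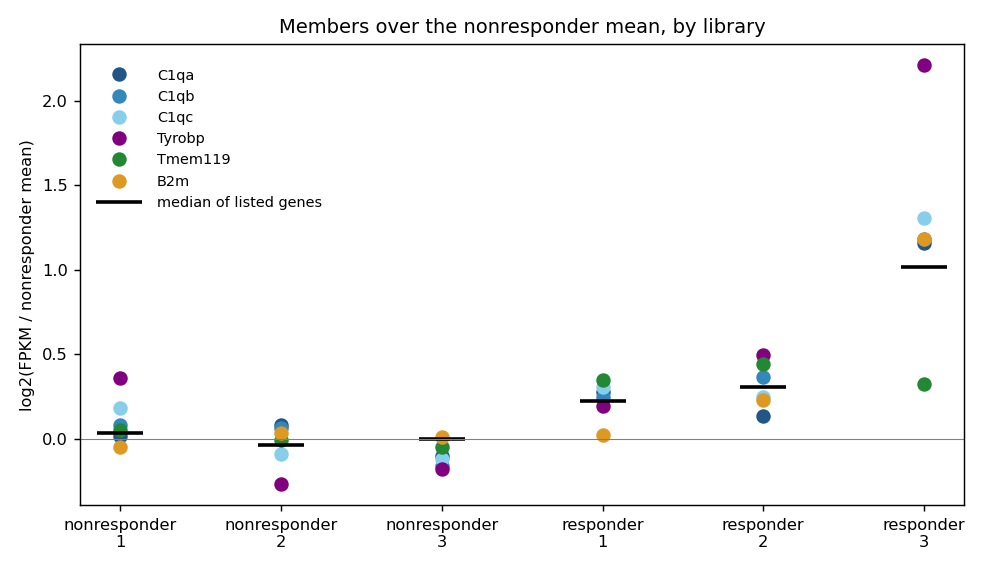
Each gene's FPKM over its nonresponder mean (vertical axis, log2) in each of the 6 libraries, with the median of all listed genes as a black bar. In responder replicate 3, Tyrobp is at 2.21, the C1q genes and B2m are between 1.16 and 1.30, near the listed median of 1.02, and Tmem119 is at 0.32.

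B2m (ENSMUSG00000060802, chromosome 2, 122147686 to 122153083, plus strand) was the most abundant of the 6. It lies within the span of Patl2, which is on the minus strand and outside the table. The strand setting of the counting is not given in the sources used here, so reads of either gene could have been counted for the other. The 250 bases before its RefSeq start, at chr2:122147437-122147686, plus strand, are shown because B2m is the member known as an interferon-responsive gene. Capitals mark GAAACTGAAA, a match to the core of the interferon-stimulated response element, whose letters are these with any base at the fifth and the sixth place. The capitals further on are a CCAAT box, which reads in reverse complement here.
B2m: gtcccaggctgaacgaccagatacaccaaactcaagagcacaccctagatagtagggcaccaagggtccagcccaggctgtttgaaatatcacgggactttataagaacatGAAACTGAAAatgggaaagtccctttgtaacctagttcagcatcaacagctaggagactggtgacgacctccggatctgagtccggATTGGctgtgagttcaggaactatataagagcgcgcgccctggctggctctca
The matches began 139 and 53 bases before the start. On either strand, the first motif was in 2.98% and the second in 33.8% of the promoter windows of that length. Neither motif overlapped the other here.

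B2m stood at 50.9, 53.9 and 52.9 FPKM among nonresponders and at 53.5, 61.7 and 120 FPKM among responders. Responder replicate 1 lay inside the nonresponder range, and replicate 3 was about double the rest. The nonresponder mean was 52.6 ± 1.51 FPKM and the responder mean 78.2 ± 36.0 FPKM (SD, n = 3 each), or 1.49-fold higher in responders and 1.10-fold without responder replicate 3. The log2 ratio of B2m to the C1q mean was 1.41 ± 0.14 in nonresponders and 1.31 ± 0.13 in responders (SD, n = 3 each). Its difference of -0.10 had an exact permutation p of 0.4 and an adjusted p of 0.84. In responder replicate 3 the ratio was 1.38, inside the range of 1.16 to 1.54 of the other libraries, so B2m and C1q were raised there by a similar factor.

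In order of FPKM in nonresponders, the genes were B2m, C1qa, C1qb, C1qc, Tyrobp and Tmem119. The ranges of C1qa and C1qb overlapped, as did those of C1qc and Tyrobp and of Tyrobp and Tmem119. The gaps from B2m to C1qa and from C1qb to C1qc were wider than the ranges. In responder replicate 3 Tyrobp was above C1qc, which it was in no other library.

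**Figure D3:**
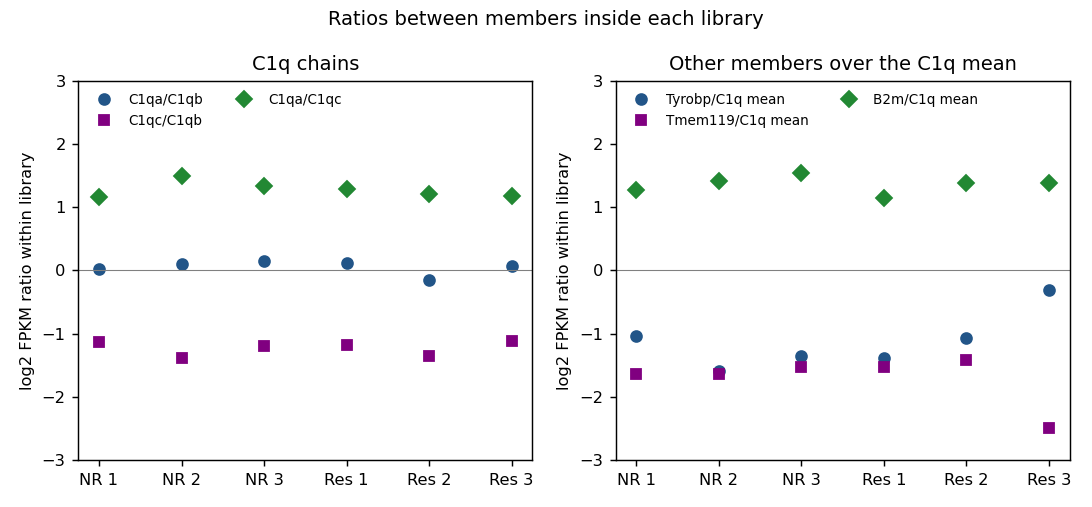
Log2 FPKM ratios inside each library (NR, nonresponder and Res, responder replicates), for pairs of C1q chains on the left and for the other genes over the mean log2 FPKM of the C1q chains on the right. The chain ratios and B2m keep to a narrow band in all 6 libraries, while in Res 3 Tyrobp is at -0.31 and Tmem119 at -2.50.

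The counts of all listed genes were also fitted with edgeR's quasi-likelihood test, with library sizes set to the authors' scale. With all 6 libraries, C1qb alone had an unadjusted p below 0.05, at 0.0499, by edgeR, and 26.5% of listed genes did. The edgeR log2 fold changes were 0.66 (SE 0.28) for C1qb, 0.60 (SE 0.30) for C1qa and 0.71 (SE 0.32) for C1qc. Those of Tyrobp, Tmem119 and B2m were 1.26 (SE 0.56), 0.37 (SE 0.19) and 0.57 (SE 0.31), with edgeR p-values of 0.0568, 0.0906 and 0.105. Benjamini-Hochberg adjustment was then set to 14156 genes, the number inferred for the authors' comparison. Genes outside the table had no edgeR p-value and were counted as ranking behind the listed genes. After this adjustment, 0 of the 6 genes and 0 listed genes passed by edgeR. DESeq2's Wald test gave an unadjusted p below 0.05 for 4 of the 6 and for 42.5% of listed genes, and 0 of the 6 passed after the same adjustment. Without responder replicate 3 DESeq2 gave 2 of the 6 and 46.7% of listed genes.

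Without responder replicate 3, edgeR gave an unadjusted p of 0.0024 for Tmem119, 0.00651 for C1qb and 0.0219 for C1qc, and 60.2% of listed genes had a p below 0.05 in that fit. Tmem119 then had a log2 fold change of 0.40 (SE 0.12), C1qb 0.31 (SE 0.11) and C1qc 0.28 (SE 0.12). C1qa, at 0.21 (SE 0.11), Tyrobp, at 0.35 (SE 0.23), and B2m, at 0.13 (SE 0.10), had edgeR p-values of 0.0596, 0.136 and 0.192. None of the 6 passed after the adjustment set to 14156 genes, where 5.45% of listed genes did. The smallest adjusted p by edgeR was 0.161 for Tmem119. Leaving out responder replicate 1 or 2 instead gave 4 of the 6 genes with an unadjusted p below 0.05 by edgeR, where 57.2% and 40.7% of listed genes had one. Leaving out nonresponder replicate 1, 2 or 3 gave 0 of the 6, where 7.35%, 6.33% and 8.51% of listed genes had one. When library sizes were taken from the listed genes themselves by TMM, the median of all listed genes moved from 0.57 to 0.01, and the differences of Tmem119 and B2m turned to -0.10 and -0.03.

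**Figure D4:**
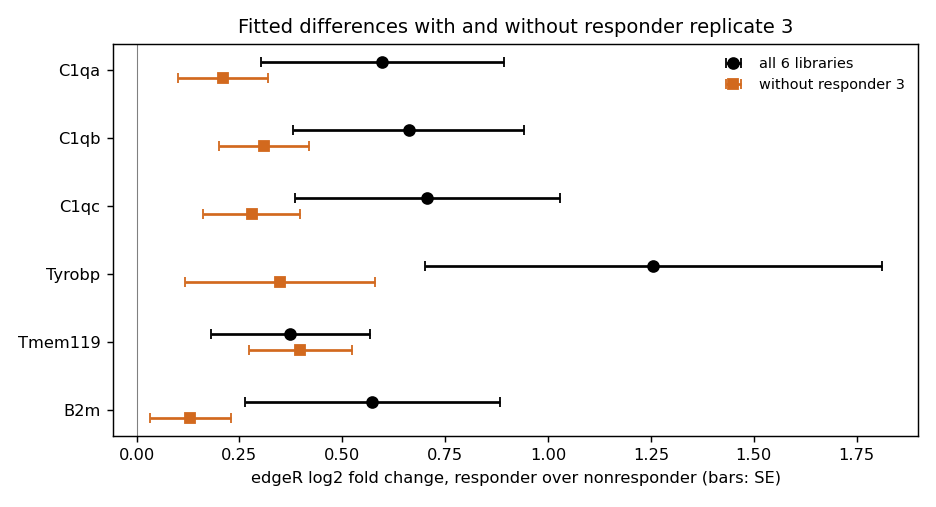
Fitted log2 fold change of responders over nonresponders (horizontal axis, with SE) from edgeR with all 6 libraries in black and without responder replicate 3 in orange. Leaving that library out lowers the estimate in every gene but Tmem119, which stays at 0.37 and 0.40, and narrows every error bar.

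The excess in responder replicate 3 was set against gene length. Over the mean of responders 1 and 2, that library was 3.62-fold higher in Tyrobp, whose deposited gene length is 667 bases, and 2.08-fold higher in B2m, with 860 bases. It was 1.93-fold higher in C1qa (1040 bases), 1.83-fold in C1qb (1088 bases) and 2.03-fold in C1qc (1931 bases), and stood at 0.949 of the others in Tmem119 (2315 bases). Within the C1q genes the excess did not follow length. Across the table, the median excess fell from class to class of length. Among 113 listed genes of up to 1000 bases, the median log2 excess was 1.32. It was 0.94 in 321 genes of over 1000 to 2000 bases, 0.65 in 460 of over 2000 to 4000 bases and 0.44 in 357 longer genes. Across these 1251 genes, which share their libraries and so are not independent, Spearman's rho between length and excess was -0.48. Between length and the difference of responders 1 and 2 from nonresponders it was -0.07. Pearson's r with log10 length was -0.49 for the excess and -0.21 for that difference. The median log2 difference of responders 1 and 2 from nonresponders was 0.33 in the shortest class and 0.24 in the longest.

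Against genes of their own length class, the C1q genes were unremarkable in responder replicate 3, with 143 to 176 of 321 genes showing a larger excess. B2m had 84 of 113 genes above it. Tyrobp had 15 of 113 above it, and Tmem119 440 of 460. The part of gene length in the differences between groups was not tested.

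**Figure D5:**
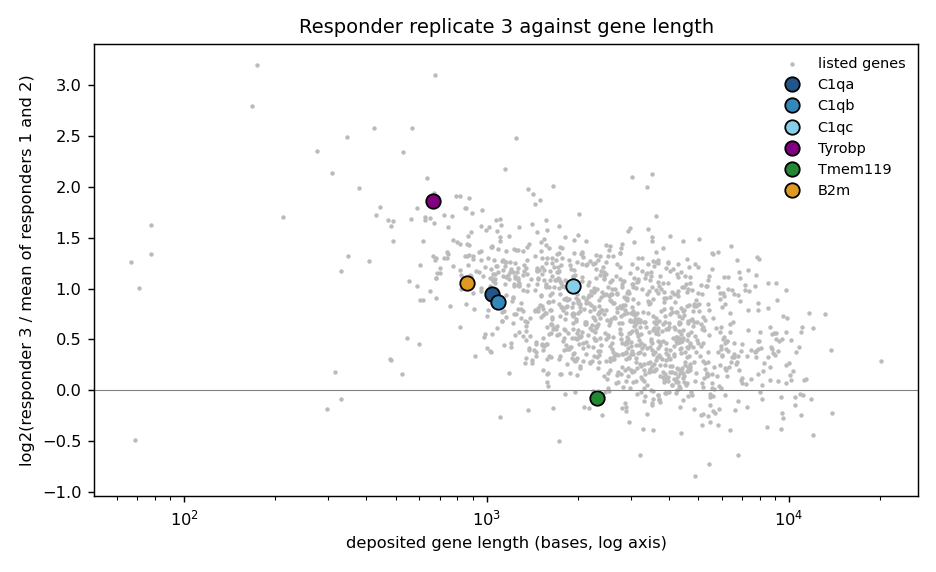
Responder replicate 3 over the mean of responder replicates 1 and 2 (vertical axis, log2) against deposited gene length (horizontal log axis, bases) for 1251 listed genes with a mean of at least 1 FPKM (grey) and the 6 genes (coloured). The cloud falls with length (rho -0.48), Tyrobp lies in its upper part at 1.86 and Tmem119 in its lower part at -0.08.

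Of the 22 microglial markers, P2ry13, Gpr34, Olfml3, Fcrls and Selplg were in the table besides the 5 already described. None of the 10 passed the adjusted threshold in the authors' deposited table. The median log2 difference of those 5 was 0.54, or 0.28 without responder replicate 3. Gpr34, a lysophospholipid receptor, stood at 4.89, 4.54 and 4.31 FPKM among nonresponders and at 4.56, 7.41 and 14.9 FPKM among responders. P2ry13, a purinergic receptor, stood at 4.49, 4.33 and 3.75 FPKM and at 3.82, 7.21 and 7.95 FPKM. In both genes responder replicate 1 was at the nonresponder level. Fcrls, an Fc receptor-like protein of mouse microglia, stood at 7.09, 6.88 and 8.70 FPKM among nonresponders and at 8.80, 9.07 and 15.0 FPKM among responders. Selplg, the selectin ligand PSGL, was steadier, at 4.27 to 4.84 FPKM and at 5.54 to 6.47 FPKM. Responder replicate 3 over the other responders was 2.48 in Gpr34, 1.68 in Fcrls, 1.44 in P2ry13, 1.38 in Olfml3 and 1.16 in Selplg, so Tmem119 was the only one of the 10 below 1. The other 12 markers, among them P2ry12, Cx3cr1, Csf1r and Trem2, have no row and were not analysed here, nor were the 14 microglial regulators, such as Spi1 and Irf8.

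Of 29 genes of the complement system, Serping1 was listed besides the C1q chains. The table held 1375 genes, beside 14156 inferred for the authors' adjustment, so the lack of a row for the others is no result about complement. Serping1 is the C1 inhibitor, which blocks the proteases bound to C1q. It stood at 0.276, 0.526 and 0.780 FPKM among nonresponders and at 1.38, 0.974 and 0.861 FPKM among responders. Responder replicate 3 was the lowest of its group, and the groups were separate by a narrow margin. These values rest on few reads, 12, 21 and 35 in nonresponders and 59, 37 and 30 in responders. Nonresponder replicate 3 thus had more reads than responder replicate 3. The authors' deposited table gave Serping1 an adjusted p-value of 0.274. Of 16 relatives of the C1q family, Cbln2, a synaptic organiser of neurons, was listed, at 11.5 to 17.6 FPKM among nonresponders and 16.9 to 20.8 FPKM among responders, and its groups overlapped.

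Of 20 genes of Tyrobp signalling, Clec5a, Fcer1g and Apoe were in the table besides Tyrobp, and none passed the adjusted threshold in the authors' deposited table. Fcer1g, an adaptor that like Tyrobp signals for receptors without a tail of their own, stood at 7.47, 6.66 and 5.51 FPKM among nonresponders and at 8.11, 7.21 and 19.2 FPKM among responders. It shared with Tyrobp an overlap of groups, a high value in responder replicate 3 and a short length, of 874 bases. Clec5a, a lectin receptor that pairs with Tyrobp, was low, at 0.273 to 0.446 FPKM and 0.511 to 0.904 FPKM, with separate groups. Its values rest on 18 to 32 reads in nonresponders and 36 to 52 reads in responders. Apoe, a lipid carrier made mainly by astrocytes and a ligand of Trem2, stood at 360 to 400.0 FPKM and at 421 to 798 FPKM.

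Of 27 genes of MHC class I presentation, Calr, Canx, Pdia3 and Hfe were listed besides B2m. Calr and Pdia3, chaperones that help load peptides on class I, passed the adjusted threshold in the authors' deposited table, at 0.0315 and 0.0130. Both also serve protein folding in the endoplasmic reticulum. Without responder replicate 3 the log2 differences were 0.53 for Calr and 0.49 for Pdia3 by edgeR, and 0.13 for B2m. Hfe, a class I-like protein that binds B2m, stood at 0.480 to 0.914 FPKM among nonresponders and 1.15 to 1.42 FPKM among responders, with separate groups. Its values rest on 32 to 63 reads in nonresponders and 67 to 88 reads in responders. The class I heavy chains H2-K1 and H2-D1, the transporters Tap1 and Tap2 and all 7 class II genes have no row and were not analysed here.

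Border-associated macrophages can also express C1q and Tyrobp. Of their 9 markers, F13a1 and Pf4 were listed, and their summed level was 0.369 to 1.32 FPKM among nonresponders and 1.32 to 4.07 FPKM among responders. Responder replicate 3 had the highest sum, through Pf4 at 3.80 FPKM, while F13a1 was at 0.277 FPKM there and at 0.299 and 0.300 FPKM in the other responders. Both genes rest on few reads per library, 3 to 41 in Pf4 and 11 to 37 in F13a1. The remaining 7 markers, Mrc1, Cd163 and Lyve1 among them, were not analysed here, so the level of such cells is not known. Of 11 astrocyte markers, 4 were listed, at a summed 192 to 217 FPKM among nonresponders and 245, 266 and 333 FPKM among responders. Of 12 leptomeningeal markers, 8 were listed, at a summed 46.6 to 52.1 FPKM among nonresponders and 116, 61.7 and 136 FPKM among responders. Most of that sum was Ptgds, a prostaglandin synthase, at 38.7 to 41.9 FPKM among nonresponders and at 99.3, 47.7 and 115 FPKM among responders. The adjusted threshold was passed in the authors' deposited table by 1 of the 4 astrocyte markers (Gjb6) and by 2 of the 8 leptomeningeal markers (Ptgds and Igfbp2). The macrophage markers F13a1 and Pf4 did not pass, nor did Lum, but their deposited adjusted values were out of order with their deposited p-values. Lum had a deposited p of 0.00014, below the 0.00027 of Igfbp2, which passed. F13a1, Pf4 and Lum could therefore not be judged by that threshold. The part of macrophages, astrocytes and leptomeningeal cells in the differences of the 6 genes was not tested.

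The listed genes whose pattern over the 6 libraries was most like that of C1q, by Pearson's r between log2(FPKM + 0.1) values, were Txndc17, Rpl23a, Gtf2f2, Atp5b and Hax1, with r between 0.997 and 0.999. None is a microglial marker, and most listed genes were highest in responder replicate 3. Without that library, the most alike were Lgals1, St8sia5, Rab5c, Hexim1 and Txndc17, with r between 0.992 and 0.998, and 83 genes were above 0.95. Over the listed genes compared, the median r to the C1q mean was 0.947 with 6 libraries and 0.749 with 5. For Tyrobp r was 0.974 and 0.747. For B2m it was 0.961 and 0.481, and for Tmem119 0.574 and 0.921. Tmem119 was thus nearest to C1q of these genes in the 5 libraries and farthest in all 6.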

How the data were processed

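PolyA RNA of the prefrontal cortex of 6 mice was sequenced after preparation with a SMARTER library kit, per the labels' protocols. The authors' deposited table gives whole read counts and FPKM per library, per the file headers. FPKM equalled the deposited count over gene length and 1 scale number per library, of 14981505 to 19298950 reads. The authors' deposited log2 fold change (nonresponders over responders) was below 0, and their deposited p-value below 0.05, in all 1375 genes. Per the submitters' processing notes, the build is mm10. Neither the aligner and counter nor the test behind the p-values is named in the labels or the file. The deposited adjusted p-values match a Benjamini-Hochberg procedure over 14156 genes, with exceptions. Rows such as Lum, F13a1 and Pf4 had adjusted values out of order with their p-values, and such rows were left out of the inference. The number 14156 was inferred from 337 genes, of which 274 gave a rank within 0.01 of a whole number. A set of 6 further columns of values per sample matches no label and was not used.

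Folds are ratios of group mean FPKM, without pseudocount. All listed counts were fitted with edgeR 4.0.16 (quasi-likelihood, robust, two-sided, no filter on low counts) and DESeq2 1.42.0 in R 4.3.3, with the authors' scale as library size, after the edgeR step was tested on simulated data. Since the rows had passed a p-value threshold in these mice, these fits are no discovery test. The SE is the log2 fold change over the square root of edgeR's F. Exact permutation tests over mice used scipy 1.17.1. Each library is 1 mouse, so p-values cover the spread between mice. In edgeR and DESeq2 the estimate of that spread is partly shared across the listed genes. The p-value of a gene there also reflects the spread of other genes. Reads carry no molecular identifiers in these files, so Poisson intervals cover counting error only.

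The 6 genes and the gene lists were chosen with earlier results of these data known. The genes named were the 6, up to 6 listed members per list, and the 5 genes most like C1q. The comparison with gene length, the promoter motifs and the singling out of responder replicate 3 were chosen after seeing the data. Coordinates of all 6 genes were the same in GENCODE release M21.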

Additional observations from a re-analysis of the deposited data

How the results depend on the processing

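The median log2 difference of the 6 genes was 0.63. It lay between 0.29 and 0.81 when each replicate was left out, and at 0.33 to 0.56 with group medians, pseudocounts or the replicate block. Scaling to the listed genes lowered it to 0.049 by TMM and to 0.082 by the sum of listed counts. By construction such scalings remove most of a difference shared by genes that were all selected as higher. Under TMM Tmem119 stood at -0.095 and B2m at -0.027, and under the sum of listed counts Tmem119 stood at -0.065. Of 72 alternative values of single genes, 60 moved by less than the spread between replicates, 9 by more, and these 3 changed sign. The 48 alternatives of the ratios moved by less than that spread. Among these, counts in place of FPKM and the replicate block leave a ratio difference unchanged by construction, so they could not move. That spread includes responder replicate 3, so it is a wide measure and says little of stability. Without that library C1qa went from 0.60 to 0.21, and the ratio of Tmem119 to C1q from -0.21 to 0.13.

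The count of the 6 genes with an unadjusted p below 0.05 was 1 by edgeR. It was 0 with TMM, the sum of listed counts, median-of-ratios size factors, edgeR's filter on low counts, and the replicate block. DESeq2 gave 4, or 2 without responder replicate 3, and leaving out each replicate gave 0 to 4. Over all listed genes the count of 365 became 70, 74 and 70 with those 3 scalings, 584 with DESeq2 (642 without responder replicate 3), 222 with the replicate block and 87 to 828 when each replicate was left out; the causes were not tested. A looser threshold of 0.20 on the adjusted values of the authors' deposited table was passed by 3 of the 6 genes and 27.3% of listed genes. Correlations of deviations between same-numbered libraries were -0.02, 0.01 and -0.02 over 1192 genes. Between libraries of other numbers they were -0.06 to 0.05. With so few libraries per group, such values cannot show whether the numbers pair the mice. Of the 6 genes, depth limits Tyrobp most, at 76 to 370 reads.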
